A study of Homo sapiens with 24 samples.

Results

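The response of PC9 cells to loss of asparagine was compared between 24 h and 6 h in the 12 libraries that carried vehicle, of 24 libraries in the series. The PC9 line derives from a human non-small cell lung cancer. Cells were plated at 500000 per 10 cm dish, grown for 2 days in RPMI with 10% serum, rinsed, and given RPMI without or with asparagine 24 h or 6 h before harvest. All 12 cultures received 0.004% DMSO, the vehicle of the ISRIB arm. The 4 groups were cells without asparagine at 24 h, cells with asparagine at 24 h, cells without asparagine at 6 h and cells with asparagine at 6 h, with 3 libraries each. The labels call these biological triplicates and do not say how the cultures were separated, so each p measures the spread between these libraries. Time since the change of medium was the same for both media at a given time, and the culture with asparagine at the same time served as its control.

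The response at each time is the log2 ratio of cells without asparagine over cells with asparagine. The difference between times, called the interaction here, is the 24 h response minus the 6 h response. A negative interaction therefore means that the response was lower at 24 h than at 6 h. Levels are CPM, counts scaled to a common library size, which compare a gene between libraries and not genes of different length with each other. A call is an adjusted p below 0.05 in the edgeR quasi-likelihood F test, adjusted over the 16955 genes tested.

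The 12 libraries carried 18969587 to 22741292 counts in genes, and 24150 to 25096 genes had at least 1 count. Epithelial markers were high in all 12 (EPCAM 426 to 563 CPM, KRT8 3417 to 4749 CPM, EGFR 841 to 2242 CPM). The lung lineage markers NKX2-1, NAPSA, SFTPB and SFTPC reached at most 0.738 CPM. Among the markers of other cells, COL1A1 was the highest at 3.90 to 7.89 CPM, followed by PECAM1 at 0.946 to 5.85 CPM. The slope of log2 deviations on transcript GC content ran from -0.111 to 0.0965 per 10 points of GC. Its extremes were replicate 2 without asparagine at 24 h (0.0965) and replicate 1 with asparagine at 24 h (-0.111), so the 24 h comparison held both ends.

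Asparagine is a non-essential amino acid that cells make from aspartate and glutamine with asparagine synthetase, the product of ASNS. When an amino acid runs short, uncharged tRNA activates the kinase GCN2, which phosphorylates the initiation factor eIF2, slows translation in general and raises translation of the transcription factor ATF4. ATF4 and its partners then raise transcription of genes for amino acid synthesis, uptake and tRNA charging, together with brakes on growth and feedback regulators that return eIF2 to its active form. This programme is the integrated stress response.

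A C/EBP-ATF response element, TGATGNAAN, is the best known sequence through which ATF4 acts. It was searched on both strands in the promoter windows of RefSeq (GRCh38.p14), from 250 bases before to 50 bases after each gene's first listed start. The 5 windows below are examples from genes whose 6 h rise was called and whose response was lower at 24 h. Other such genes held the motif too, among them DLGAP1-AS2, GPX8, FUT1, ARID5B, GOT1, TMEM154, FIGNL1 and TBL1X. No rule set the 5 apart from these. The capitals mark the motif, or its reverse complement, within 25 flanking bases each side. They are ASNS (chr7:97872443-97872501, minus strand), ATF3 (chr1:212565191-212565249, plus strand), CHAC1 (chr15:40953236-40953294, plus strand), HERPUD1 (chr16:56931940-56931998, plus strand) and AARS (chr16:70289661-70289719, minus strand), each written along the strand of its gene.
ASNS: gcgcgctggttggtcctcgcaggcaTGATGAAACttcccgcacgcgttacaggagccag
ATF3: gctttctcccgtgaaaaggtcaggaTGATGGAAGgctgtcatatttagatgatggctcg
CHAC1: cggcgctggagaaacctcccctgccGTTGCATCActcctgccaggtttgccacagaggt
HERPUD1: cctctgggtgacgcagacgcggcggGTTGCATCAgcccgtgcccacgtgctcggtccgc
AARS: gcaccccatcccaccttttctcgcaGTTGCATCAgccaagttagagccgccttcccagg
The motif lay 68 bases before the start in ASNS, 191 in ATF3, 210 in CHAC1, 177 in HERPUD1 and 188 in AARS. A match is a description of these letters in this window and not a site of binding.

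With no term for the replicate number in the fit, nearly all genes called at 6 h were not called at 24 h. Of 16955 genes, 321 differed between the times (1.89%), 58 with a higher response at 24 h (0.342%) and 263 with a lower one (1.55%). In all 2103 genes had an unadjusted p below 0.05, and 120 of the 321 differed by at least 2-fold, 6 higher and 114 lower. The withdrawal response itself was called for 1 gene at 24 h (0.0059%), ASNS, against 1515 genes at 6 h (8.94%; 958 higher, 5.65%, and 557 lower, 3.29%). At 24 h 2921 genes had an unadjusted p below 0.05, 1445 higher and 1476 lower. Across all tested genes the 24 h and 6 h responses correlated at 0.248, a description over genes that share GC content, with which the responses correlated at -0.460 and -0.302.

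The counts rest on how the replicate number is treated. Libraries with the same number deviated together within 24 h (correlations of 0.219 to 0.499) and within 6 h (0.457 to 0.528), with all 3 pairs above 0.1. Across the times the same-number correlations were mixed, between -0.267 and 0.461, with 1 or 2 of 3 pairs above 0.1. With the replicate number as a block, 643 genes were called for the interaction (31.1% of them higher, against 18.1% without it), 605 at 24 h and 2643 at 6 h. With a block within each time, an alternative chosen after seeing the data, the counts were 2195, 3929 and 4882. All 321 genes were among the calls of both blocked fits.

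The 321 genes fell into classes by which comparisons called them. A response was resolved where the gene was called at 6 h, the interaction was called with the opposite sign, and no call was made at 24 h: 304 genes, or 545 with the replicate block. ASNS alone was partly kept, with calls at both times and in the interaction. There were 13 late genes, called for the interaction and not at 6 h, with the larger change at 24 h, or 70 with the block. The remaining 3, STOX1, DNASE2 and ABTB1, had the larger change at 6 h without a call there, and were called at 6 h with the block. No gene was held (called at both times in the same direction without a call for the interaction), against 133 with the block and 17 by DESeq2. Without a filter on low counts 169 were held. With a block within each time 1423 were held and 1198 resolved, so the balance of these classes rests on the fit. A further 1210 genes called at 6 h were undecided, with neither the interaction nor 24 h called.

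**Figure D1:**
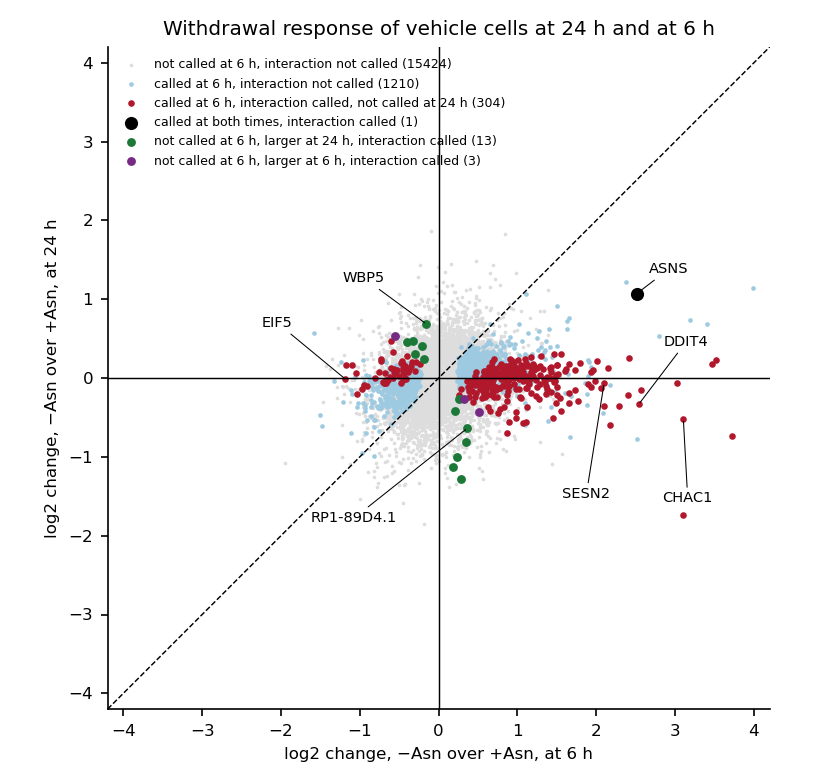
Withdrawal response of each tested gene in the vehicle libraries, 24 h on the y axis against 6 h on the x axis, both as log2 of cells without over cells with asparagine. Most resolved genes lie along the horizontal zero line, ASNS stands above it at 1.07, and the 13 late genes were not called on the x axis, where they lie between -0.40 (MARCH4) and 0.36 (RP1-89D4.1).

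ASNS, the enzyme that makes the withdrawn amino acid, was the single gene called at 24 h. It had 57.6, 59.5 and 54.6 CPM without asparagine at 24 h, against 28.7, 27.4 and 25.7 CPM with asparagine at 24 h. At 6 h it had 174, 149.6 and 171 CPM without asparagine, against 30.8, 26.7 and 29.4 CPM with asparagine. Every library without asparagine was above every library with it at both times, and the 24 h levels without asparagine were below the 6 h ones. Its response was 1.07 ± 0.09 (SE) at 24 h (adjusted p = 2.2e-05) and 2.51 ± 0.08 at 6 h (adjusted p = 6.5e-11), with an interaction of -1.44 ± 0.12 (adjusted p = 1.2e-05).

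The mRNA of ATF4, the central transcription factor of this programme, had 373, 374 and 365 CPM without asparagine at 24 h, against 388, 402 and 391 CPM with asparagine. The 6 h levels were 1016, 1123 and 1154 CPM without asparagine, against 568, 651 and 655 CPM with asparagine. The 24 h groups did not overlap but lay close together, with the libraries without asparagine slightly lower, while at 6 h the libraries without asparagine were all higher. The interaction was -0.90 ± 0.10 (adjusted p = 0.00011), with a response of -0.09 at 24 h and 0.81 at 6 h. ATF4 was lower at 24 h than at 6 h in medium with asparagine too, and its 24 h levels without asparagine lay below all 6 h levels with it.

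CHAC1, which degrades glutathione and is a classic ATF4 target, had the largest interaction among called genes with a mean of at least 5 CPM. It had 0.997, 1.34 and 0.726 CPM without asparagine at 24 h, against 1.35, 1.61 and 1.46 CPM with asparagine. Its 6 h levels were 20.4, 31.8 and 15.2 CPM without asparagine, against 2.32, 2.29 and 3.22 CPM with asparagine. The 6 h libraries without asparagine stood apart from the other 9, and their 24 h counterparts were the lowest of all. The interaction was -3.63 ± 0.45 (adjusted p = 0.00018).

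TRIB3, a pseudokinase that restrains ATF4 and CHOP, had 77.1, 94.6 and 78.1 CPM without asparagine at 24 h, against 79.2, 98.8 and 91.7 CPM with asparagine. The 6 h libraries held 355, 399.9 and 317 CPM without asparagine, against 95.8, 99.9 and 86.0 CPM with asparagine. Its 24 h groups overlapped, although each library without asparagine was below the one with the same number, and its 6 h groups did not. The interaction was -2.04 ± 0.15 (adjusted p = 4.3e-06).

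DDIT4 and SESN2, stress-induced brakes on the growth kinase complex mTORC1, had the same form. DDIT4 had 9.03, 11.5 and 12.4 CPM without asparagine at 24 h, against 11.4, 12.6 and 17.6 CPM with asparagine, and 53.9, 75.1 and 37.0 CPM without asparagine at 6 h, against 9.01, 11.8 and 7.83 CPM with asparagine. SESN2, whose product senses leucine, had 7.58, 8.003 and 8.32 CPM without asparagine at 24 h, against 7.40, 9.78 and 7.88 CPM with asparagine, and 58.6, 92.1 and 65.4 CPM without asparagine at 6 h, against 12.9, 20.9 and 16.7 CPM with asparagine. For both genes the 24 h groups overlapped and the 6 h groups were separate. In DDIT4 each 24 h library without asparagine was below the one with the same number, with a response of -0.33 that was called with the block within each time (adjusted p = 0.017) and not with GC correction added (adjusted p = 0.82). The interactions were -2.87 ± 0.33 for DDIT4 (adjusted p = 9.9e-05) and -2.17 ± 0.26 for SESN2 (adjusted p = 0.00016).

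**Figure D2:**
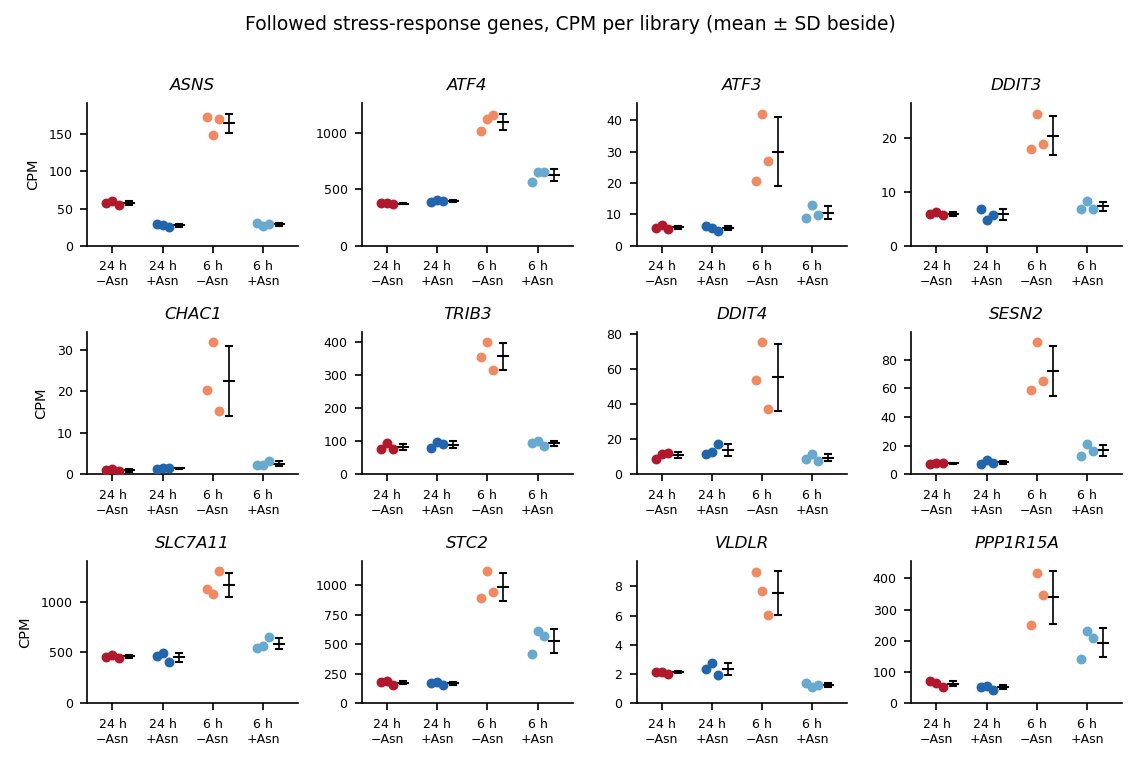
CPM of the 12 followed stress-response genes in each vehicle library, with points for the 3 libraries of each group and the mean ± SD beside them. At 6 h the libraries without asparagine stand above those with it, and at 24 h the groups lie together except for ASNS at 54.6 to 59.5 CPM without asparagine against 25.7 to 28.7 CPM with it.

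The interaction was called for the other followed genes as well, with 1 exception. The interaction was -1.46 ± 0.22 for DDIT3 (adjusted p = 0.0012), which encodes CHOP, -1.45 ± 0.32 for ATF3 (adjusted p = 0.022), a further bZIP factor, and -0.97 ± 0.13 for SLC7A11 (adjusted p = 0.00043), the cystine importer. It was -0.83 ± 0.18 for STC2 (adjusted p = 0.02), a secreted glycoprotein, and -2.72 ± 0.29 for VLDLR (adjusted p = 4.7e-05), a lipoprotein receptor at 1.26 to 7.55 CPM on average per group. DDIT3 overlaps MARS and MBD6 on the opposite strand, and whether counting used strand is not given in the sources used here, so its counts may include theirs.

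PPP1R15A, the regulatory subunit that directs a phosphatase to eIF2 and so closes the response, was the exception. It averaged 62.5 ± 8.4 CPM without asparagine and 51.1 ± 6.1 CPM with asparagine at 24 h (SD, n = 3 each). The 6 h means were 339 ± 84 CPM without asparagine and 195 ± 46 CPM with asparagine (SD, n = 3 each). The level was lower at 24 h in both media, by 2.44 on the log2 scale without asparagine and by 1.93 with it, and the interaction was not called (-0.51 ± 0.25, adjusted p = 0.43). Its 24 h response of 0.29 was not called either (adjusted p = 0.41), so neither loss nor persistence was shown.

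The gene lists below overlap, and all were drawn up with earlier results of these data known. Of the 38 tested genes of a list of 40 ATF4 and CHOP targets, 29 had a lower response at 24 h and none a higher one, beside 1.55% lower over all genes. At 6 h 34 of the 38 had risen, beside 5.65% of all genes, and ATF5 had fallen. The median of the list was -1.27 for the interaction, 0.00 at 24 h and 1.31 at 6 h, against 0.00, 0.01 and 0.00 over all genes. The members with the smallest adjusted p were TRIB3, ASNS, HERPUD1 (-1.52 ± 0.13) and GPT2 (-1.24 ± 0.11). PYCR1, which makes proline, had the largest adjusted p (-0.13 ± 0.14, adjusted p = 0.79), and its 6 h response was 0.06.

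Genes of amino acid supply were among the resolved responses. Of 22 tested genes of amino acid synthesis and one-carbon metabolism, 8 had a lower response at 24 h, beside 1.55% of all genes, and none a higher one. At 6 h 12 had risen, beside 5.65% of all genes, and 1 had fallen, beside 3.29%. GPT2, mitochondrial alanine aminotransferase, averaged 51.5 ± 3.7 CPM without asparagine and 56.1 ± 2.0 CPM with asparagine at 24 h, and 119 ± 8.1 CPM without asparagine and 54.9 ± 2.9 CPM with asparagine at 6 h (SD, n = 3 each). PSAT1, which takes part in serine synthesis, had an interaction of -1.33 ± 0.14 (adjusted p = 5e-05), and PCK2, mitochondrial phosphoenolpyruvate carboxykinase, one of -1.47 ± 0.17 (adjusted p = 0.00011). GLUL, glutamine synthetase, had an interaction of 0.00 with a response of -0.13 at both times.

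Of 18 tested amino acid transporters, 8 had a lower response at 24 h, beside 1.55% of all genes, and none a higher one. At 6 h 9 had risen, beside 5.65% of all genes, and 1 had fallen, beside 3.29%. SLC6A9, a glycine transporter, had an interaction of -1.97 ± 0.19 (adjusted p = 2.9e-05), and SLC38A2, which carries small neutral amino acids, one of -1.29 ± 0.14 (adjusted p = 6.6e-05). SLC7A1, which carries cationic amino acids, averaged 164 ± 11 CPM without asparagine and 161 ± 9.9 CPM with asparagine at 24 h, and 559 ± 17 CPM without asparagine and 309 ± 17 CPM with asparagine at 6 h (SD, n = 3 each). Its level was lower at 24 h in both media, and so was that of SLC3A2, the heavy chain of several exchangers, with an interaction of -0.95 ± 0.13. With the replicate block SLC3A2 was called below its control at 24 h (-0.25, adjusted p = 0.044), and so was the autophagy kinase ULK1 (-0.53, adjusted p = 0.042).

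Of 18 tested cytosolic aminoacyl-tRNA synthetases, 6 had a lower response at 24 h, beside 1.55% of all genes, and none a higher one. At 6 h 10 had risen, beside 5.65% of all genes. GARS, for glycine, averaged 100.4 ± 6.4 CPM without asparagine and 99.6 ± 1.5 CPM with asparagine at 24 h, and 299.5 ± 37 CPM without asparagine and 116 ± 8.8 CPM with asparagine at 6 h (SD, n = 3 each). The interactions of AARS, MARS and SARS, for alanine, methionine and serine, were -0.74, -0.69 and -0.54, with adjusted p of 0.00065, 0.0014 and 0.0026. MARS overlaps DDIT3 on the opposite strand.

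Of 17 tested brakes and sensors of mTORC1, 3 had a lower response at 24 h, beside 1.55% of all genes. They were DDIT4, SESN2 and EIF4EBP1 (-0.71 ± 0.11, adjusted p = 0.0019), the translation repressor that mTORC1 inhibits. All 3 are also members of the ATF4 and CHOP list. None of 15 eIF2 kinases, phosphatase subunits and eIF2B subunits was called for the interaction by edgeR or DESeq2. At 6 h 1 of the 15 had risen, beside 5.65% of all genes, a count that does not set the list apart. An unadjusted p below 0.05 for the interaction was found for 1 of the 15, beside 2103 of all 16955 genes. Of 22 genes of the endoplasmic reticulum and its unfolded protein response 4 had a lower response at 24 h, beside 1.55% of all genes. They were XBP1, HERPUD1, ERN1 (-1.45 ± 0.14, adjusted p = 3e-05) and DNAJB9 (-0.86 ± 0.20, adjusted p = 0.03). ERN1 encodes the sensor IRE1, which splices XBP1 mRNA, and DNAJB9 a co-chaperone. XBP1 gave the smallest adjusted p of all genes. It had 43.7, 41.4 and 43.8 CPM without asparagine at 24 h, against 39.4, 39.3 and 41.1 CPM with asparagine, and 158, 176 and 168 CPM without asparagine at 6 h, against 42.6, 40.04 and 46.1 CPM with asparagine. Its interaction was -1.86 ± 0.11 (adjusted p = 1.5e-07). The 3 libraries without asparagine at 6 h stood apart from the other 9, which lay between 39.3 and 46.1 CPM.

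Of 25 tested autophagy genes 5 had a lower response at 24 h, beside 1.55% of all genes, and none a higher one. They included ULK1, the kinase that starts autophagy (-1.96 ± 0.20, adjusted p = 4.2e-05), MAP1LC3B and GABARAPL1, which coat the forming autophagosome (-1.09 ± 0.13 and -0.81 ± 0.13), and the lipid carrier ATG2A (-0.74 ± 0.17). Of 17 apoptosis genes 3 had a lower response at 24 h, beside 1.55% of all genes. They were the BH3-only genes BBC3 (-1.97 ± 0.30, adjusted p = 0.0014) and PMAIP1 (-0.99 ± 0.20, adjusted p = 0.013), and TNFRSF10B (-0.55 ± 0.13, adjusted p = 0.049), a death receptor. All 3 are also members of the ATF4 and CHOP list. Of 28 MAP kinase and immediate-early genes 5 had a lower response at 24 h, beside 1.55% of all genes. Among them were KLF10 (-0.74), ETV5 (-0.83), DUSP6 (-0.83) and KLF4 (-0.94), with adjusted p of 0.001 to 0.008.

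Of 21 p53 targets 2 had a lower response at 24 h, beside 1.55% of all genes. They were BBC3 and TNFRSF10B, both already named among the apoptosis genes. GDF15, a stress cytokine, had a larger estimate than either and a wide spread, at 4.97 ± 2.7 CPM without asparagine and 5.71 ± 1.6 CPM with asparagine at 24 h and 47.8 ± 21 CPM without asparagine and 13.0 ± 5.7 CPM with asparagine at 6 h (SD, n = 3 each), and its interaction was not called (-2.08 ± 0.54, adjusted p = 0.066). It was called with the replicate block (adjusted p = 1.7e-05) and with the GC correction (adjusted p = 0.02), and not by DESeq2 (adjusted p = 0.092). Calls were single in several lists: TNFSF15 among 16 inflammatory genes, SLC7A11 among 21 NRF2 targets, VEGFA among 26 genes of glycolysis and hypoxia and ESRP1 among 19 genes of epithelial-mesenchymal transition were lower. TMEM97 among 25 cholesterol genes and MCM10 among 32 genes of DNA replication were higher. Over all genes 1.55% were called lower and 0.342% higher, and a single call gives no result on a list. SLC7A11 and VEGFA are also members of the ATF4 and CHOP list. No member was called by edgeR among 30 mitosis genes, 16 interferon-stimulated genes, 13 mitochondrially encoded genes or 72 ribosomal protein genes. In these lists 3, 3, 1 and 4 members had an unadjusted p below 0.05, beside 2103 of all 16955 genes, so these counts single out no list. DESeq2 called 1 of the mitosis genes and none of the others.

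**Figure D3:**
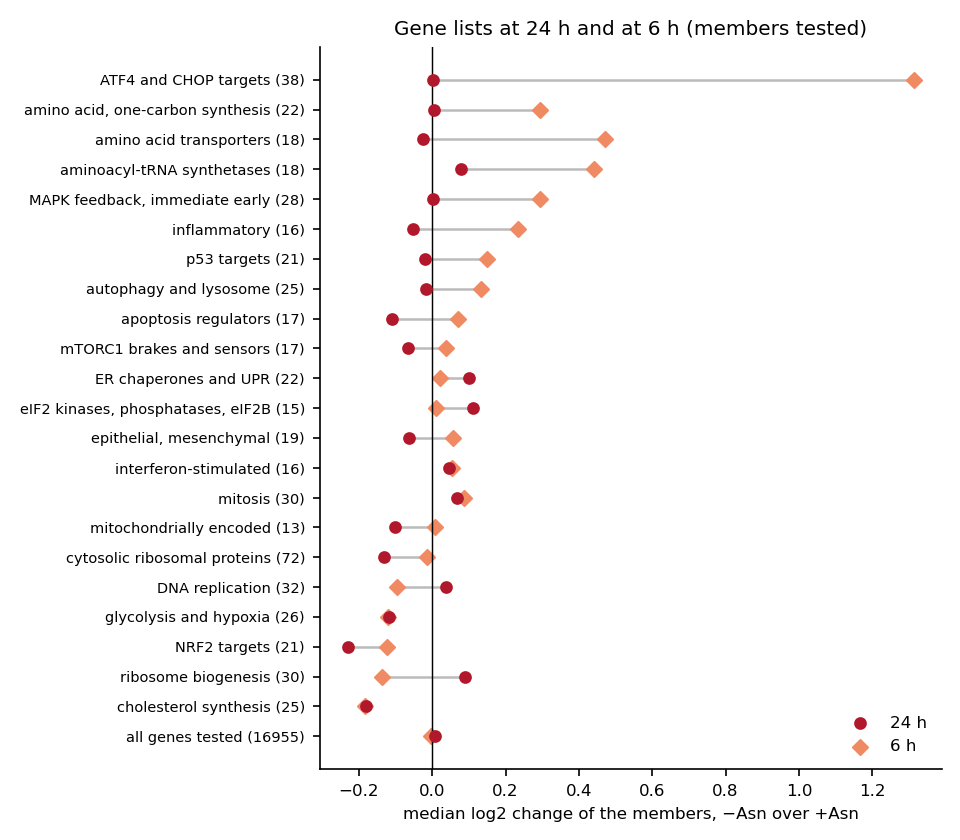
Median log2 response (without over with asparagine) of the tested members of each gene list, with circles for 24 h and diamonds for 6 h and the numbers of members in brackets. The ATF4 and CHOP targets lie at 0.00 at 24 h and 1.31 at 6 h, and the list medians at 24 h span -0.23 (NRF2 targets) to 0.11 (eIF2 kinases, phosphatases and eIF2B).

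As a group the resolved rises lay at the level of the control at 24 h. Over the 253 resolved rises the median response was -0.03 at 24 h (interquartile range -0.14 to 0.09) and 0.91 at 6 h (0.67 to 1.27). In 250 of them the 95% interval of the 24 h response lay below 0.5 times the 6 h response. At 24 h 21 of the 253 had an unadjusted p below 0.05 in the opposite direction and 8 in the same one. These medians and counts describe a group that the calls selected. The count of 250 takes the 6 h estimate as exact and sets no limit on a fall below the control.

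Several large resolved rises lay outside the amino acid genes. KIF21B, a kinesin, averaged 3.53 ± 0.59 CPM without asparagine and 4.52 ± 0.47 CPM with asparagine at 24 h, and 10.8 ± 1.1 CPM without asparagine and 2.50 ± 0.23 CPM with asparagine at 6 h (SD, n = 3 each). Its interaction was -2.45 ± 0.23 (adjusted p = 2.3e-05). TSC22D3, a glucocorticoid-induced leucine zipper protein, had one of -2.64 ± 0.30 (adjusted p = 8.5e-05), TNFSF15, a cytokine of the TNF family, one of -2.02 ± 0.21 (adjusted p = 4.4e-05), and GRB10, an adaptor that damps insulin signalling, one of -1.98 ± 0.22 (adjusted p = 9.1e-05).

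The promoter windows gave a further description of the resolved rises. Of 253 genes, 200 were matched to a RefSeq window and 20 of those held TGATGNAAN (10.0%). Among the 10685 tested genes that were matched 181 held it (1.69%), and among all 27305 promoters 1002 did (3.67%). Of the 38 matched resolved falls none held it. Among the followed genes 3 of 11 matched windows did, those of ASNS, ATF3 and CHAC1.

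The 51 resolved falls were smaller. Their median response was 0.07 at 24 h and -0.57 at 6 h, with a median interaction of 0.63. In all 51 the lower end of the 95% interval of the 24 h response lay above 0.5 times the 6 h response. That count sets no limit on a rise above the control, and the calls selected the group. EIF5, the protein that triggers GTP hydrolysis on eIF2 when a start codon is found, had 1124, 1132 and 1141 CPM without asparagine at 24 h, against 1172, 1201 and 1053 CPM with asparagine. At 6 h there were 528, 528 and 795 CPM without asparagine, against 1233, 1365 and 1608 CPM with asparagine. The 24 h groups overlapped and the 6 h libraries without asparagine were all lower. Its interaction was 1.17 (adjusted p = 0.002). The processed pseudogene EIF5P1 followed at 1.34 ± 0.25 (adjusted p = 0.0084), and reads of EIF5 may be counted for it.

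HSPA8, the constitutive 70 kDa heat shock protein, had 4038, 3385 and 3994 CPM without asparagine at 24 h, against 3426, 2930 and 3448 CPM with asparagine. Levels at 6 h were 1735, 1397 and 1845 CPM without asparagine, against 3035, 2393 and 2866 CPM with asparagine. At 24 h the groups overlapped, but each library without asparagine was above the one with the same replicate number, and at 6 h those without asparagine were all lower. The 24 h response was 0.22, with an adjusted p of 0.052 with the replicate block and 0.0012 with the block within each time. Whether HSPA8 was above its control at 24 h therefore rests on the fit. Its interaction was 0.96, and its pseudogenes HSPA8P1 (1.07 ± 0.19) and HSPA8P9 (0.91 ± 0.22), which may take up reads of HSPA8, lay close to it. With the replicate block HSPA8P1 was called higher at 24 h (0.47, adjusted p = 0.036). HSPA2, a relative expressed at a lower level, had an interaction of 0.86 ± 0.20 (adjusted p = 0.038).

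Among the other falls that closed were CNNM1 (1.27 ± 0.17, adjusted p = 0.00047), PPARGC1B, a coactivator of mitochondrial genes (1.11 ± 0.14, adjusted p = 0.00025), and JPH1, which tethers the endoplasmic reticulum to the plasma membrane (0.97 ± 0.20, adjusted p = 0.019). PPARGC1B averaged 20.1 ± 0.68 CPM without asparagine and 19.3 ± 1.0 CPM with asparagine at 24 h, and 10.5 ± 1.2 CPM without asparagine and 21.7 ± 1.0 CPM with asparagine at 6 h (SD, n = 3 each). None of the 30 ribosome biogenesis genes was called for the interaction by edgeR, and 14 had an unadjusted p below 0.05, all higher, beside 5.71% of all genes that were higher by that measure. DESeq2 called 4. At 6 h 9 of the 30 had fallen, beside 3.29% of all genes. The list median was 0.23 for the interaction, 0.09 at 24 h and -0.14 at 6 h. POLR1E, a subunit of RNA polymerase I, lay just past the threshold (0.45 ± 0.11, adjusted p = 0.051), and so did NOP2, a methyltransferase of ribosomal RNA (0.41 ± 0.10, adjusted p = 0.052). Both were called with the replicate block, with adjusted p of 0.025 and 0.013.

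A response closes when the level without asparagine returns, when the level with asparagine moves to meet it, or through both. Between 24 h and 6 h 5964 genes differed without asparagine (35.2%) and 4661 with it (27.5%). Of the 253 resolved rises, 226 were lower at 24 h without asparagine, and for 197 of these that was the one move toward closing. The level with asparagine rose for 56, and for 27 of those it was the one move. In 66 of the 253 the level with asparagine fell as well, without closing the gap. Of the 51 resolved falls, 43 returned upward without asparagine and 15 closed in part through a lower level with asparagine, which was the one move for 8.

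**Figure D4:**
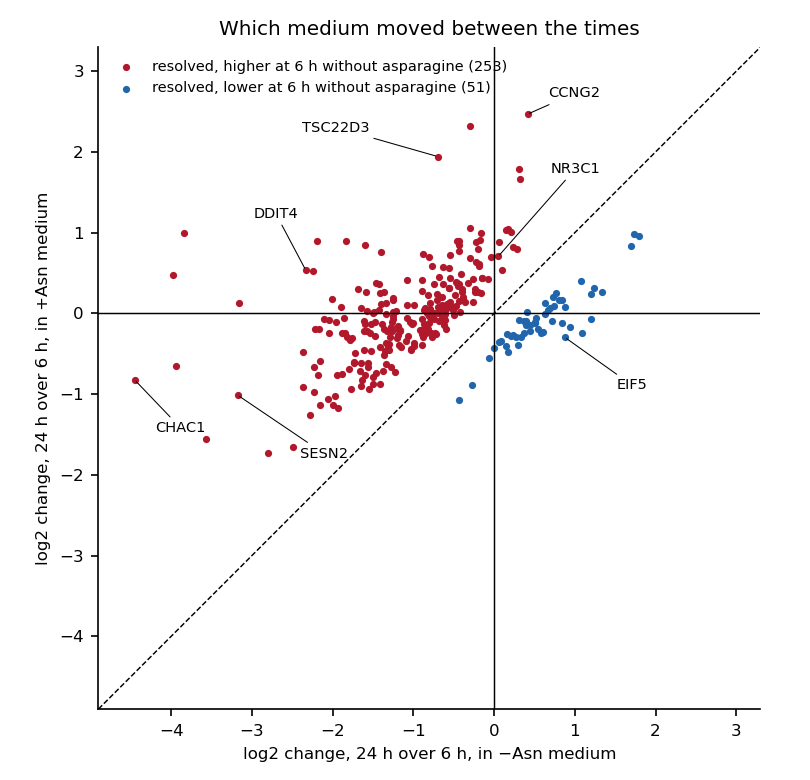
Change between times (log2 of 24 h over 6 h) of the resolved genes, without asparagine on the x axis and with asparagine on the y axis, and the dashed line marks equal change. Most resolved rises lie at negative values without asparagine and near 0 with it (medians -0.99 and -0.01), while CCNG2 lies near the vertical zero line at 2.47 with asparagine.

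CCNG2, cyclin G2, which is linked to exit from the cell cycle, averaged 10.9 ± 2.6 CPM without asparagine and 13.3 ± 7.0 CPM with asparagine at 24 h. The 6 h means were 8.18 ± 1.4 CPM without asparagine and 2.40 ± 0.72 CPM with asparagine (SD, n = 3 each). The level with asparagine was 2.47 higher on the log2 scale at 24 h and that without it differed by 0.41, which was not called, and its interaction was -2.05 ± 0.44 (adjusted p = 0.02). The same pattern held for others of the 27 picked after their values were seen. NR3C1, the glucocorticoid receptor, averaged 134 ± 11.9 CPM without asparagine and 120 ± 11.8 CPM with asparagine at 24 h, and 129 ± 3.63 CPM without asparagine and 73.7 ± 6.26 CPM with asparagine at 6 h (SD, n = 3 each). The nuclear RNA NEAT1 and the repressors HBP1 and NFIL3 were higher at 24 h with asparagine by 1.03, 0.89 and 0.79, and differed by 0.15, -0.23 and -0.20 without it, which was not called. Of the 8 falls of this kind, LAD1, a protein of epithelial anchoring filaments, averaged 128 ± 6.67 CPM without asparagine and 119 ± 11.4 CPM with asparagine at 24 h, and 133 ± 3.89 CPM without asparagine and 174 ± 7.32 CPM with asparagine at 6 h (SD, n = 3 each).

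Beyond ASNS, what persisted depended on the fit. The 704 undecided rises had a median response of 0.12 at 24 h and 0.46 at 6 h, and 567 of them had a positive estimate at 24 h, 141 with an unadjusted p below 0.05. The 506 undecided falls had a median of -0.13 at 24 h and -0.45 at 6 h, with 117 below 0.05 in the same direction. These counts support nothing on direction, because a gene that turned the other way at 24 h would tend to be called for the interaction and leave this class. GC content correlated with both responses, and with the GC correction alone 2 genes were called at 24 h.

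The genes called at 6 h were also searched for those called at 24 h in both blocked fits with a GC correction, a choice made after the values were seen. There were 9 genes in the direction of 6 h: ASNS, PHGDH, SAMD9, ANKRD11, SH3KBP1, CALM2P2, C22orf46, NSMCE2 and P2RY6. They come from the 1515 genes called at 6 h. Over all 16955 genes, 176 were called at 24 h with the replicate block and GC correction. With the block within each time and GC correction 2171 were. The list is a description and gives no result on persistence. PHGDH, which starts serine synthesis, had 155, 168 and 148 CPM without asparagine at 24 h, against 115, 133 and 142 CPM with asparagine, and 238, 227 and 213 CPM without asparagine at 6 h, against 135, 146 and 135 CPM with asparagine. Its groups did not overlap at either time. Its response was 0.27 at 24 h, with an adjusted p of 0.19 without a block or GC correction and 0.021 with both, and 0.70 at 6 h (adjusted p = 4.5e-05). The interaction of PHGDH was -0.43 (adjusted p = 0.088, and 0.039 with the replicate block). SAMD9 had 159, 132 and 156 CPM without asparagine at 24 h, against 115, 95.2 and 93.0 CPM with asparagine, and 154, 170.4 and 224 CPM without asparagine at 6 h, against 98.9, 109.7 and 129.7 CPM with asparagine. Its response was 0.56 at 24 h (adjusted p = 0.19, and 0.035 with the replicate block) and 0.70 at 6 h, and its groups did not overlap at either time. P2RY6, a receptor for UDP, was the single gene of the 9 below its control, by -0.68 at 24 h and -0.76 at 6 h. In 4 other genes, ATF4P3, NPC1, PROSER1 and KLHL36, the 24 h call ran against that of 6 h.

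The late genes numbered 13, and none was called at 24 h without a block. Their median interaction was 0.70 for the 6 with a higher response at 24 h and -1.15 for the 7 with a lower one. All 13 had an unadjusted p below 0.05 at 24 h, and 9 were called there with the replicate block and 7 with the block and GC correction. The class was selected for a called interaction with the larger change at 24 h, so these counts are no separate support for a 24 h response. With the block MARCH4, BRIX1P1, RP1-89D4.1 and TLE3 were also called at 6 h, in the opposite direction to 24 h. The 6 with a higher response at 24 h were WBP5, TCEAL8, MARCH4, RTF1, BRIX1P1 and RP3-425P12.4. WBP5, also named TCEAL9, had 74.2, 56.7 and 73.8 CPM without asparagine at 24 h, against 50.4, 35.7 and 41.0 CPM with asparagine. Its levels at 6 h were 37.3, 40.4 and 42.5 CPM without asparagine, against 41.0, 44.7 and 48.4 CPM with asparagine. The 24 h libraries without asparagine were the highest 3 of the 12. Its interaction was 0.85 ± 0.18 (adjusted p = 0.018), with a response of 0.69 at 24 h (adjusted p = 0.19, and 0.028 with the block) and -0.16 at 6 h.

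TCEAL8, of the same family of X-linked genes, had an interaction of 0.61 ± 0.14 (adjusted p = 0.032) and responses of 0.41 at 24 h and -0.21 at 6 h. RTF1, which acts with the Paf1 complex in transcription elongation, had one of 0.42 ± 0.10 (adjusted p = 0.04). For MARCH4, a membrane ubiquitin ligase, the level with asparagine fell by 1.16 between the times on the log2 scale, while the difference without it was -0.30 and not called, with an interaction of 0.86 ± 0.20 (adjusted p = 0.038).

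Of the 7 late genes with a lower response at 24 h, UBALD1 (-0.64 ± 0.15, adjusted p = 0.035) and the corepressor TLE3 (-0.52 ± 0.12, adjusted p = 0.042) were the 2 that code for proteins. With the block and GC correction their 24 h responses were -0.10 (adjusted p = 0.56) and -0.09 (adjusted p = 0.45), against -0.42 and -0.27 without either. The pseudogene RP1-89D4.1 had the smallest adjusted p of the class (0.0074), at 32.4 ± 2.8 CPM without asparagine and 50.4 ± 1.8 CPM with asparagine at 24 h (SD, n = 3 each). RPS24P8, RPL12P4 and EEF1A1P9 had responses of -1.28, -1.13 and -0.81 at 24 h. The genes they copy, RPS24, RPL12 and EEF1A1, had 24 h responses of 0.06, -0.07 and 0.07. With AC099535.4, BRIX1P1 and RP3-425P12.4, pseudogenes made up 7 of the 13 (53.8%), against 17.8% of tested genes, and their values are uncertain where they share reads with a parent gene.

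**Figure D5:**
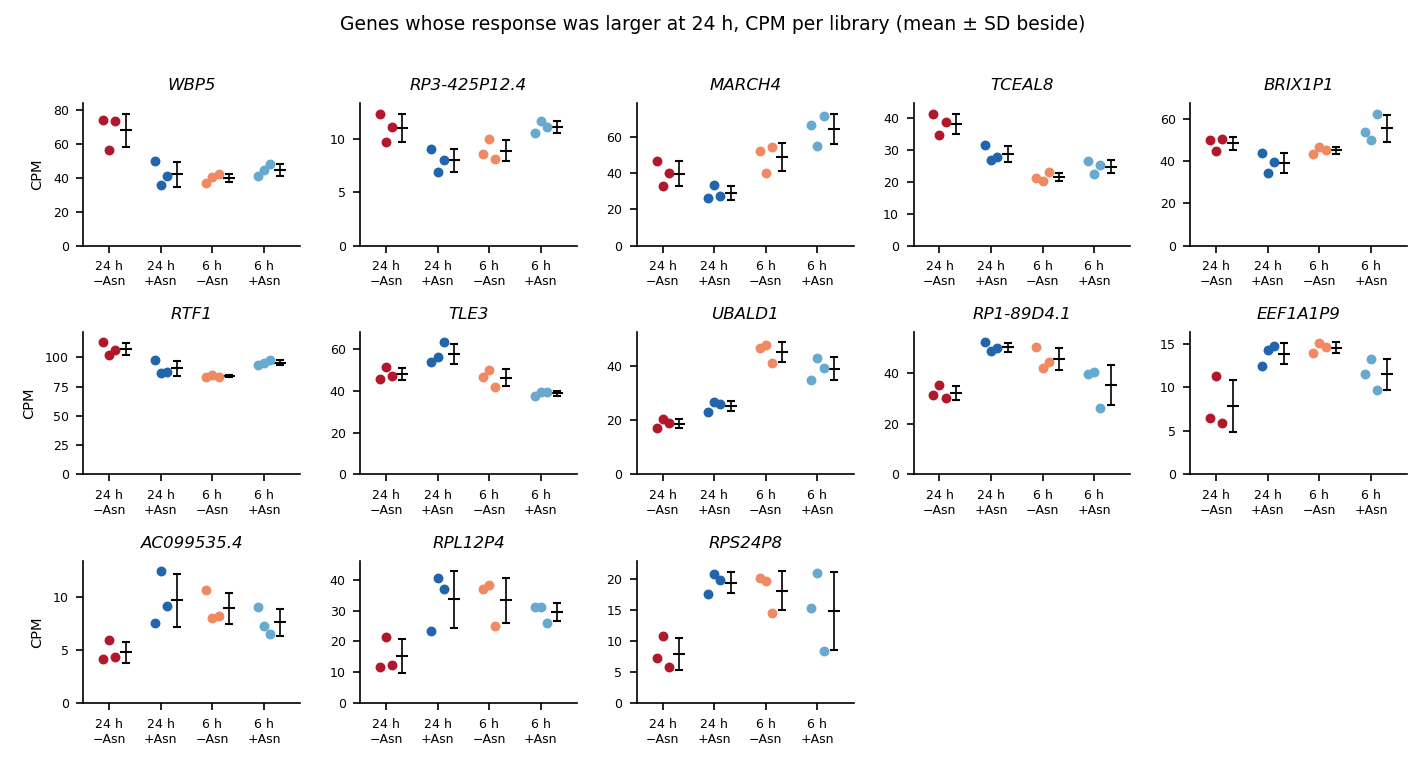
CPM of the 13 late genes in each vehicle library, with points for the 3 libraries of each group and the mean ± SD beside them. WBP5 lies at 56.7 to 74.2 CPM without asparagine at 24 h and at 35.7 to 50.4 CPM in the other 9 libraries.

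The same difference between times was set against that in the 12 libraries with 200 nM ISRIB, a small molecule that activates eIF2B and blunts the integrated stress response, in 1 fit to all 24 libraries. The vehicle interaction differed from the ISRIB interaction for 127 of 17409 genes (0.73%), 66 higher (0.379%) and 61 lower (0.35%), or for 210 with the replicate block. TRIB3 averaged 83.1, 89.7, 360.2 and 94.2 CPM with vehicle in the order 24 h without and with asparagine and 6 h without and with it, and 101, 86.6, 74.6 and 82.0 CPM with ISRIB. Its interaction was -2.04 with vehicle and 0.36 with ISRIB, a difference of -2.41 (adjusted p = 2e-05). DDIT4 had interactions of -2.88 with vehicle and -0.09 with ISRIB (difference -2.79, adjusted p = 0.017), and SESN2 of -2.17 with vehicle and 0.49 with ISRIB (difference -2.66, adjusted p = 0.0039). PRSS8, a membrane serine protease, and ZBED3 differed by -2.28 and -2.15, with adjusted p of 0.0071 and 0.00023.

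In the other direction EIF5 had an interaction of 1.17 with vehicle and -0.58 with ISRIB (difference 1.75, adjusted p = 0.011), and EIF5P1 one of 1.33 with vehicle and -0.95 with ISRIB (difference 2.28, adjusted p = 0.031). The ISRIB interactions themselves were not called (adjusted p = 0.18 and 0.17). EIF5 averaged 1131, 1140, 622 and 1407 CPM with vehicle in the same order of groups, and 270, 1201, 502 and 1495 CPM with ISRIB. With ISRIB it was therefore lower without asparagine at both times. HSD3B1, a steroid dehydrogenase, averaged 39.3, 41.9, 43.1 and 41.9 CPM with vehicle in the same order of groups and 10.4, 42.9, 43.9 and 42.5 CPM with ISRIB. Its interaction was -0.13 with vehicle and -2.09 with ISRIB (difference 1.96, adjusted p = 2.6e-05), so the low level belonged to the ISRIB libraries without asparagine at 24 h. The pseudogene AKR1B10P1 and TLR4, a receptor of innate immunity, had the same form, with interactions of 0.12 and 0.49 with vehicle, -1.61 and -1.27 with ISRIB, and differences of 1.73 and 1.76 (adjusted p = 3.3e-05 and 0.028).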

How the data were processed

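RNA was sequenced from PC9 cells in medium without or with asparagine at 24 h and 6 h, with vehicle. The authors deposited counts per gene, made with Bowtie2 and featureCounts against hg38, and log2 values from the variance-stabilizing transformation of DESeq2, per the submitters' processing notes. Their versions, and whether counting used strand, are not given in the sources used here. Those deposited log2 values served as an alternative input to limma 3.58.1.

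The counts of the 12 vehicle libraries (37411 genes) were analysed in edgeR 4.0.16 (R 4.3.3) with TMM factors of 0.936 to 1.05. Its filterByExpr kept 16955 genes, and the rest held 0.0912% to 0.109% of the counts. Each group had its own mean (8 residual degrees of freedom), and contrasts were tested with the edgeR quasi-likelihood F test with Benjamini-Hochberg adjustment over all genes tested. The contrast with ISRIB was fitted to all 24 libraries. The fit was checked on simulated counts with known changes.

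The named genes were 12 followed stress-response genes, the 12 largest interactions each way with a mean of at least 5 CPM, up to 6 per class, up to 5 per gene list, and 5 each way for the contrast with ISRIB. Some 6 late or faded genes fell outside this rule and were listed because those classes are small. Members, lists and comparisons were chosen with earlier results of these data known.

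All 3 same-number correlations exceeded 0.1 at 24 h and at 6 h, so libraries may be paired by replicate number within a time. The calls, SE and p given here do not use this pairing, except where a block is named. What these numbers mark is not in the labels. Alternatives were the replicate block, also within each time, a correction for GC content with a spline of 5 degrees of freedom (known for 16878 genes, 99.5%), upper-quartile and RLE scaling, DESeq2 1.42.0, no filter, a filter of 5 CPM in 3 libraries, all 24 libraries fitted together, and each library left out. The blocks within each time were chosen after seeing the data. Promoter windows came from RefSeq (GRCh38.p14), matched by symbol for 10685 of the 16955 genes tested.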

Additional observations from a re-analysis of the deposited data

Results flagged for a closer look

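Under withdrawal of asparagine with vehicle, 321 genes had a response that differed between 24 h and 6 h by the test of the difference itself, and for 127 genes this difference between times itself differed between vehicle and ISRIB. The values below are log2 units.

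The most negative differences, 24 h response minus 6 h response, were those of CHAC1 (-3.63), DDIT4 (-2.87), TSC22D3 (-2.64), KIF21B (-2.45), SESN2 (-2.17), CCNG2 (-2.05), TRIB3 (-2.04), TNFSF15 (-2.02), GRB10 (-1.98), SLC6A9 (-1.97), ULK1 (-1.96) and XBP1 (-1.86). Of these 12, CCNG2 alone was not lower at 24 h than at 6 h without asparagine, and its level with asparagine was higher at 24 h, as were those of TSC22D3 and KIF21B.

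The most positive were those of EIF5P1 (1.34), CNNM1 (1.27), EIF5 (1.17), PPARGC1B (1.11), STOX1 (1.09), HSPA8P1 (1.07), JPH1 (0.97), HSPA8 (0.96), HSPA8P9 (0.91), MARCH4 (0.86), HSPA2 (0.86) and WBP5 (0.85).

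The difference between times was lower with vehicle than with ISRIB for DDIT4 (-2.79), SESN2 (-2.66), TRIB3 (-2.41), PRSS8 (-2.28) and ZBED3 (-2.15). It was higher with vehicle than with ISRIB for EIF5P1 (2.28), HSD3B1 (1.96), TLR4 (1.76), EIF5 (1.75) and AKR1B10P1 (1.73).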

How the results depend on the processing

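No called interaction of a named gene changed sign under any alternative, while the balance of higher and lower calls did shift, as given below. Of 172 results for single genes 97 kept their side of the threshold in all fits with all libraries. With the replicate block the counts were 643 for the interaction, 605 at 24 h, 2643 at 6 h, 545 resolved, 133 held and 70 late, and with a block within each time 2195, 3929, 4882, 1198, 1423 and 630. With the GC correction they were 740 for the interaction, 2 at 24 h, 665 resolved and 58 late. The replicate block with GC correction gave 1086, 176, 2470, 905, 27 held and 141 late, and the block within each time with GC correction 2898, 2171, 4249, 1781, 497 and 746. These blocks and GC corrections raised the share of interaction calls that were higher, which was 18.1% without them, 31.1% with the replicate block, 37.7% with the GC correction, 43.9% with both and 46.5% and 50.1% with the block within each time, without and with GC correction. At 24 h 45.1% of the calls were higher with the replicate block.

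DESeq2 gave 491 for the interaction, 132 at 24 h, 46 late and 17 held. Without a filter on low counts these were 582, 854, 111 and 169. All 24 libraries fitted together gave 213 for the interaction, 795 at 6 h and 1 late. For the contrast with ISRIB the count was 399 with DESeq2, 297 with no filter, 210 with the replicate block, 795 with the GC correction and 1179 with the replicate block and GC correction. Upper-quartile scaling moved the share of higher calls between the times to 62.9% without asparagine and 64.9% with it, against 49.9% and 50.7%.

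With each library left out in turn, the interaction gave 225 to 328 calls, 6 h 856 to 1773, 24 h 1 to 843, resolved 220 to 289, late 1 to 44, held 0 to 104, and the contrast with ISRIB 70 to 152. The 24 h count was 843, and the held count 104, without replicate 1 with asparagine at 24 h, which had the most negative GC slope. It was 8 without replicate 2 without asparagine at 24 h and 3 without replicate 3 with asparagine at 6 h. The 6 h count was 856 without replicate 3 without asparagine at 6 h, and 928 and 943 without replicates 1 and 2 with asparagine at 6 h. The cause of these shifts was not tested. The late class and the count at 24 h therefore rest on single libraries and on the fit, and the precision of genes below 5 CPM is limited by their counts.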

Other observations

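WBP5 and TCEAL8 belong to the TCEAL and BEX cluster of the X chromosome, which was looked at after their values were seen. Of 6 tested members, 2 were called for the interaction (1.89% of all genes), and these were WBP5 and TCEAL8 themselves. With the replicate block 3 were higher at 24 h without asparagine, beside 1.61% of all genes. They were the same 2 and TCEAL4, whose interaction was not called (adjusted p = 0.28). These counts include the genes that led to the search, so they give no result on the family. The median response of the 6 was 0.43 at 24 h and -0.03 at 6 h.

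The same difference between times was called in the ISRIB libraries for 464 of 17409 genes (2.67%), 125 higher and 339 lower.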
